A study of Mus musculus with 12 samples.

Results

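The genes described here encode SR proteins, hnRNPs and their partners in pre-mRNA splicing, measured in tumors that grew under the skin of BALB/c mice from Renca, a line of mouse kidney cancer cells. All rows of the deposited expression table whose Ensembl identifier maps to a symbol beginning with Srsf or Hnrnp were taken, together with Tra2a, Tra2b, Ddx5, Ddx17, Ptbp1, Srrm1, Srrm2, Clk1, Clk4 and Son. This gave 42 genes of the 14496 in the table. By role they were 10 SR proteins, 2 Tra2 proteins, 2 SR kinases, 3 scaffold proteins of nuclear speckles, 2 helicases and 23 hnRNPs, among the last Ptbp1 and 2 processed pseudogenes. The study compared 6 subcutaneous tumors from hosts that also carried a tumor in the kidney (intra-kidney or IK tumor, here IK1 to IK6) with 6 subcutaneous tumors that grew alone (SC1 to SC6), all collected at day 14. Both groups are the same cell line, strain and site, so the IK tumor is the only stated difference between them. RNA came from whole tumors, so each value mixes tumor cells and stroma, and fewer cells of a type cannot be told apart from less RNA per cell. The labels name no separate mice, so p-values measure the spread between these 12 samples.

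SR proteins carry RNA-binding domains and a tail rich in arginine and serine, bind exonic enhancers and help the spliceosome to define exons. The hnRNPs coat nascent transcripts and often act in the opposite direction, by masking splice sites or enhancers. Clk kinases phosphorylate the SR tail, Son and the Srrm proteins organize nuclear speckles where splicing factors are stored, and Ddx5 and Ddx17 are paralogous RNA helicases of the spliceosome that also act as transcription coregulators. Many of these genes control their own output through exons or introns that send the transcript to decay or hold it in the nucleus, which a total per gene does not resolve.

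Values are log2 CPM as deposited, that is reads relative to a scaled size of each library, after addition of 0.5 reads. The scaled size was 0.985 (IK2) to 1.009 (IK3) times the reads of the library, summed over the rows of the table. Differences are the mean with an IK tumor minus the mean alone. Summed over the rows of the table, the libraries held 53312559 to 66142468 reads. Of 7 markers of the epithelial tumor cells 6 were in the table, with Krt7 not among its rows. Their summed level was 11.28 to 11.35 with an IK tumor and 11.20 to 11.53 alone (log2 CPM). Krt8 and Cdh16 weighed most in it, with means of 9.98 and 9.88 with an IK tumor, and Epcam was low at 2.17. Of the 6, 5 had lower means with an IK tumor (median difference -0.06), with 0 at limma p under 0.05 without adjustment. All 6 T cell markers had lower means with an IK tumor and limma p under 0.05 without adjustment, at summed levels of 3.52 to 6.29 with an IK tumor and 3.97 to 6.40 alone. IK2 stood apart from its group with the 6.29, and SC6 from its own with the 3.97. Of the other cell types, red cell markers had higher means in 4 of 4 (median difference 0.31, 3 with p under 0.05). Fat cell markers had lower means in 4 of 4 (median -0.96, 2 with p under 0.05), fibroblast markers in 6 of 6 (-0.43) and endothelial markers in 5 of 5 (-0.18), the last 2 lists with 0 at p under 0.05. Macrophage markers had lower means in 5 of 6 (-0.08) and skeletal muscle markers higher means in 4 of 6 (summed 5.20 to 7.58 with an IK tumor and 1.62 to 8.74 alone), also with 0 at p under 0.05. None of these markers passed after adjustment, and the part of these other cell types in the results was not tested. All 15 proliferation genes tested had higher means with an IK tumor, among them the mitotic kinase Cdk1 at 0.19 (limma adjusted p = 0.432). Of the 15, 9 had p under 0.05. Over all genes tested, 53.3% had higher means and 11.5% had p under 0.05. The part of the T cell and proliferation genes in the results below was examined only by leaving out tumors and by adding the T cell or proliferation mean to the fit.

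No splicing gene passed limma's test after Benjamini-Hochberg adjustment over the 14008 genes tested, and neither did any other gene (0 of 42 against 0% of all genes). Limma voom on the recovered reads also called 0 genes, and limma without a variance trend called 1 gene (0.00714%), none of them a splicing gene. At p under 0.05 without adjustment, limma singled out 1608 genes, or 11.5% of those tested, and 11 of the 42 splicing genes (26.2%). Of these, 4 were higher with an IK tumor (9.52% of the splicing genes, 5.86% of all) and 7 were lower (16.7%, against 5.62% of all). The groups did not overlap for 2 of the 42, against 0.478% of all genes: Tra2b higher (0.278% of all genes) and Ddx5 lower (0.2%). In the comparison without covariates, 21 members had higher means and 21 lower, against 53.3% higher over all genes. Among genes with a mean of 6 to 10 log2 CPM, 57.1% of the 35 members and 63.6% of all 3786 genes had higher means. The median difference was 0.0035 for the 42 members and 0.0074 for all genes tested. The balance over the 42 shifted with a covariate in the fit: 15 of 42 had a higher value with the T cell mean (50.8% of all genes) and 14 with the proliferation mean (48.7%). Differences above 0.1 in size occurred in 7 of 42 (16.7%, against 34.5% of all genes), and for 36 of 42 the 95% interval lay within 0.25 on either side of 0. The shares above 0.1 and at p under 0.05 were not matched for level or spread. The median SD within groups was 0.064 for the members and 0.114 for all genes.

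**Figure D1:**
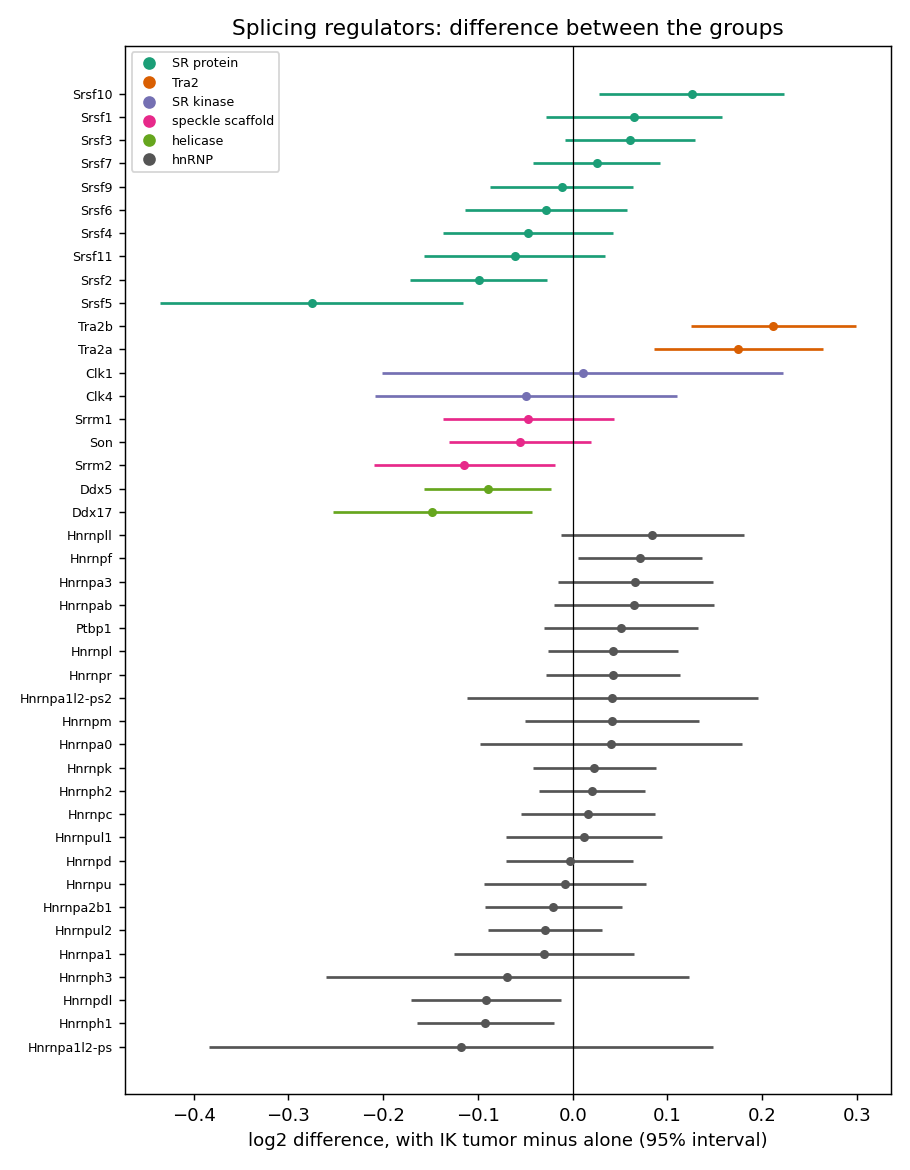
Log2 difference (with IK tumor minus alone) of each of the 42 genes, with 95% intervals from limma, colored by role (6 tumors per group). Tra2a and Tra2b lie to the right of 0 and Srsf5, Ddx17, Srrm2, Srsf2 and Ddx5 to the left; no gene passed after adjustment over all genes.

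The Tra2 pair lay highest in the comparison. Tra2a and Tra2b are SR-like proteins that bind GAA-rich exonic enhancers and promote exon inclusion. Tra2b was at 7.52, 7.66 and 7.73 log2 CPM (lowest, median and highest) with an IK tumor and at 7.36, 7.44 and 7.47 alone. The lowest tumor with an IK tumor, IK6, thus lay 0.053 above the highest tumor alone, SC3. Means were 7.63 ± 0.0847 and 7.42 ± 0.048 (SD, n = 6 each), a difference of 0.21 (SE 0.0401, 95% interval 0.12 to 0.30), or 15.8% more. By limma's p of 0.000163 the gene ranked number 5 among 14008, and its adjusted p was 0.432. Tra2a was at 6.78, 6.90 and 6.94 with an IK tumor and at 6.61, 6.70 and 6.83 alone, so that SC3 reached into the range of the other group. Its difference was 0.17 (SE 0.0412, 95% interval 0.085 to 0.26, 12.9% more), with limma adjusted p = 0.432.

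Leaving out single tumors kept the Tra2b difference at 0.19 to 0.23 and that of Tra2a at 0.16 to 0.20. Without IK2, the T cell-rich tumor of its group, Tra2b passed at a difference of 0.21 (limma, adjusted p = 0.0447), 1 of 137 genes that did (0.983%), while Tra2a had an adjusted p of 0.0725. With limma's sample weights, which called 545 genes (3.89%), the members past the threshold were Tra2b (0.19, adjusted p = 0.0369), Tra2a (0.15, 0.0467) and Srsf5 (-0.27, 0.0492). With the T cell mean in the fit the differences were 0.20 for Tra2b and 0.18 for Tra2a, and with the proliferation mean 0.18 and 0.15 (limma, adjusted p = 0.733 and 0.823 for both genes).

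**Figure D2:**
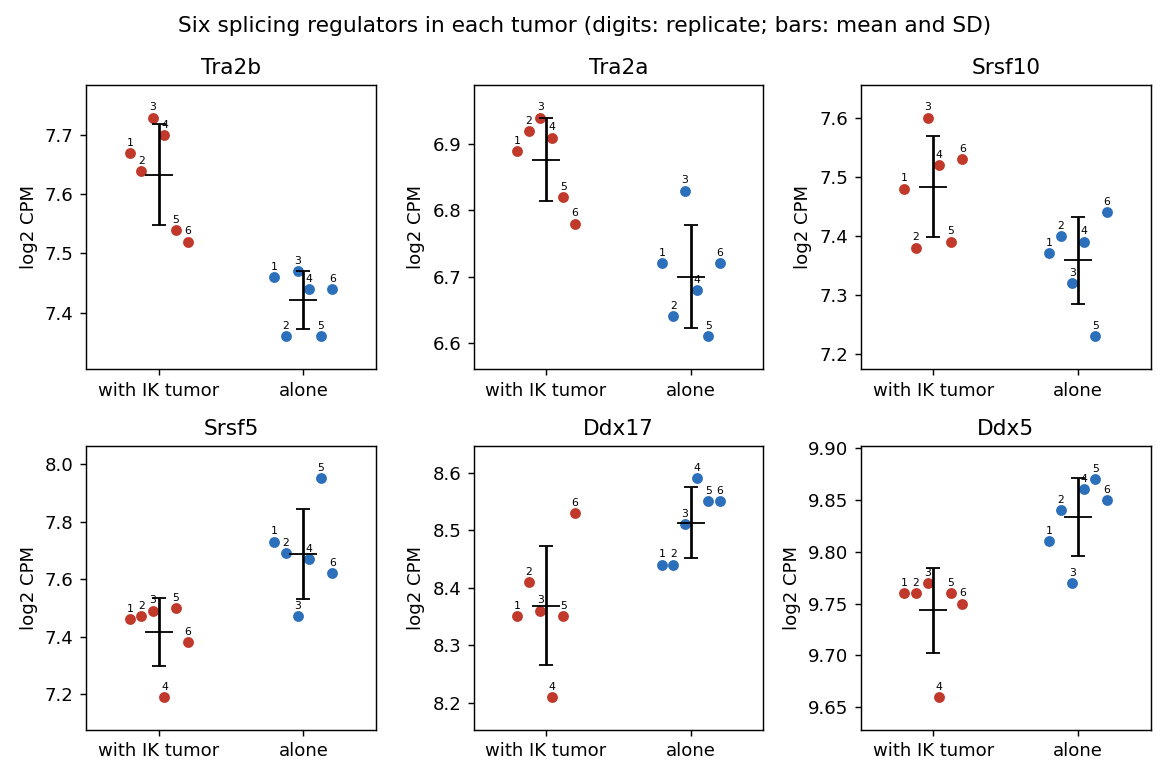
Log2 CPM of 6 splicing regulators in each tumor, with the replicate number beside each point, the mean as a horizontal mark and the SD as a bar (n = 6 per group; each panel has its own axis, which does not start at 0). Tra2b separates the groups fully, Ddx5 by 0.0024, and in the other 4 panels the groups overlap.

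Promoter sequence upstream of the RefSeq start is shown for the 4 genes with the largest differences, 2 in each direction, so that a reader can see what they share. The start used for Tra2a lay within 0 GENCODE transcripts, those of Tra2b and Srsf5 within 1 and that of Ddx17 within 2. Each run gives the 150 bases before the start, 5′ to 3′ on the gene's strand, in build GRCm38.p6; this build differs from the mm9 of the deposited table. Capitals mark the letters CCAAT, the TATA box written as TATAAA, the GC box written as GGGCGG, an ETS motif written as CCGGAAG, the E-box written as CACGTG and the core of the cAMP response element written as TGACGT, each searched on both strands. The last of these was added after the letters had been seen. In Srsf5 the last GC box overlaps an ETS match by 1 base, and in Tra2a TGACGTCA is 1 site that counts on both strands.
Tra2b (chr16:22266006-22266155, minus strand): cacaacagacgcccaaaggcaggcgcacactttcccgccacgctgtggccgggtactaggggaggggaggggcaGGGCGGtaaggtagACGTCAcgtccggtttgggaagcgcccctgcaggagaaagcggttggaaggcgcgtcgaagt
Tra2a (chr6:49264053-49264202, minus strand): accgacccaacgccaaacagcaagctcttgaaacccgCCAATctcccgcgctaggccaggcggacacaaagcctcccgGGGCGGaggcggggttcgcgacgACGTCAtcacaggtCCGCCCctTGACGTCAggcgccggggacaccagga
Srsf5 (chr12:80945349-80945498, plus strand): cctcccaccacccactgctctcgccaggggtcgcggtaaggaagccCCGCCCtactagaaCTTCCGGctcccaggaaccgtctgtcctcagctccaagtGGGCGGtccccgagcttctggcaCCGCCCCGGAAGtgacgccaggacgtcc
Ddx17 (chr15:79546742-79546891, minus strand; 1 of 2 listed starts): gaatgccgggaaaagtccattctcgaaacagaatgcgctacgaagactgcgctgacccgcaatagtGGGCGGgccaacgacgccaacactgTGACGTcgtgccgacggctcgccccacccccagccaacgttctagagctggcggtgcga

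All 4 windows held a GC box and none held TATAAA. The response element core was present in Tra2a, Tra2b and Ddx17, which differ in direction, and Srsf5 lacked these letters but held 2 ETS matches. Of the 42 genes, 38 had an entry in the RefSeq promoter table. The core occurred in 11 of the 38 (28.9%) against 5.27% of 27025 genes with an entry. Since the core was chosen after the windows of Tra2a, Tra2b and Ddx17 had been seen, and these genes are among the 11, its share is no independent result. The 27025 include genes outside the 14496 of the expression table. GC boxes occurred in 22 of 38 (57.9% against 29.0%), CCAAT in 18 (47.4% against 25.3%), TATAAA in 2 (5.26% against 8.08%), ETS matches in 3 (7.89% against 5.68%) and E-boxes in 3 (7.89% against 4.30%). The windows of the splicing genes were also richer in CpG, at a median of 15 CpG against 4 and a median GC content of 65% against 54%, and the shares above were not matched for this. These matches describe letters in the reference and are not measured binding sites.

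Among the 10 SR proteins the differences ran both ways, with 4 higher and 6 lower means. Srsf5, an SR protein known as an insulin- and growth-responsive splicing enhancer, had the largest difference of all 42 genes. It was at 7.19, 7.47 and 7.50 with an IK tumor and at 7.47, 7.68 and 7.95 alone. SC3 was the only tumor alone that fell inside the other group's range, and IK4 and SC5 marked the ends. The difference was -0.28 (SE 0.0738, 95% interval -0.44 to -0.12), or a change of -17.4% (limma adjusted p = 0.432). It was -0.23 without IK4 and -0.22 without SC5, -0.21 with the T cell mean in the fit and -0.17 with the proliferation mean, the last of which moved it by more than 1.5 times.

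Srsf2, also called SC35, a speckle marker that binds exonic enhancers, was at 7.85, 7.90 and 8.0 with an IK tumor and at 7.95, 8.02 and 8.07 alone. Its difference was -0.10 (95% interval -0.17 to -0.027, limma adjusted p = 0.432). Srsf2 shares exon sequence with Mettl23 and Mfsd11 on the opposite strand in GENCODE M21. Strand handling was not given in the sources used here, so how reads of the shared stretches were counted is not known. Srsf10, which is known to act as a splicing repressor when dephosphorylated, went the other way. It was at 7.38, 7.50 and 7.60 with an IK tumor and at 7.23, 7.38 and 7.44 alone, a difference of 0.13 (95% interval 0.028 to 0.22, limma adjusted p = 0.432). This difference dropped to 0.04 with the T cell mean and to 0.03 with the proliferation mean in the fit (limma, adjusted p = 0.848 and 0.929).

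The other 7 SR proteins differed by less than 0.07 in either direction. Srsf1, the archetypal SR protein and a known oncogenic splicing factor, differed by 0.06 (95% interval -0.028 to 0.16), and Srsf3, the smallest of the classical SR proteins, by 0.06 (-0.0080 to 0.13). Both lay above 8 log2 CPM in every tumor. Srsf6 differed by -0.03 (-0.11 to 0.057), Srsf7 by 0.03 (-0.042 to 0.092) and Srsf11 by -0.06 (-0.16 to 0.034). Srsf4 and Srsf9, at -0.05 and -0.01, were the 2 lowest SR genes, with means of 4.22 and 5.53 with an IK tumor. None of these 7 had p under 0.05 in limma (adjusted p from 0.459 to 0.895).

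The SR kinases Clk1 and Clk4 did not separate the groups but varied most between tumors among the genes above 5 log2 CPM, apart from Srsf5. Transcripts of both genes are known for introns retained in the nucleus until stress releases them. Clk1 was at 6.39, 6.59 and 6.86 with an IK tumor and at 6.31, 6.62 and 6.83 alone, a difference of 0.01 (95% interval -0.20 to 0.22). Clk4 was at 5.12, 5.27 and 5.38 with an IK tumor and at 5.10, 5.36 and 5.52 alone, a difference of -0.05 (-0.21 to 0.11). Both groups covered nearly the same range. SC2 was the lowest of the 12 tumors for both genes, with IK6 and SC1 next to it, while IK1 was highest for Clk1 and SC4 for Clk4. Limma's adjusted p was 0.968 for Clk1 and 0.776 for Clk4.

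Clk1 and Clk4 moved together across the tumors. Relations were computed for the 3 roles that have exactly 2 members. Over 12 tumors Clk1 and Clk4 had Pearson r = 0.89 (permutation p = 0.00018, adjusted over the 3 pairs 0.00027) and Spearman rho = 0.86 (permutation p = 0.00074, adjusted 0.0011). Within the groups r was 0.85 with an IK tumor (exact permutation p = 0.036, n = 6) and 0.97 alone (exact permutation p = 0.0056, n = 6), and it was 0.88 without the 2 tumors farthest from the median of Clk1. Tra2a and Tra2b had r = 0.95 and rho = 0.95 (permutation p = 2e-05 and adjusted 6e-05 for each, 2e-05 being the smallest that 100000 resamples can give). Within the groups their r was 0.95 with an IK tumor (exact permutation p = 0.017, n = 6) and 0.85 alone (exact permutation p = 0.0083, n = 6), and it was 0.92 without the 2 farthest tumors. Points of a pair share library and depth, and the pairs are not independent of the differences given above.

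**Figure D3:**
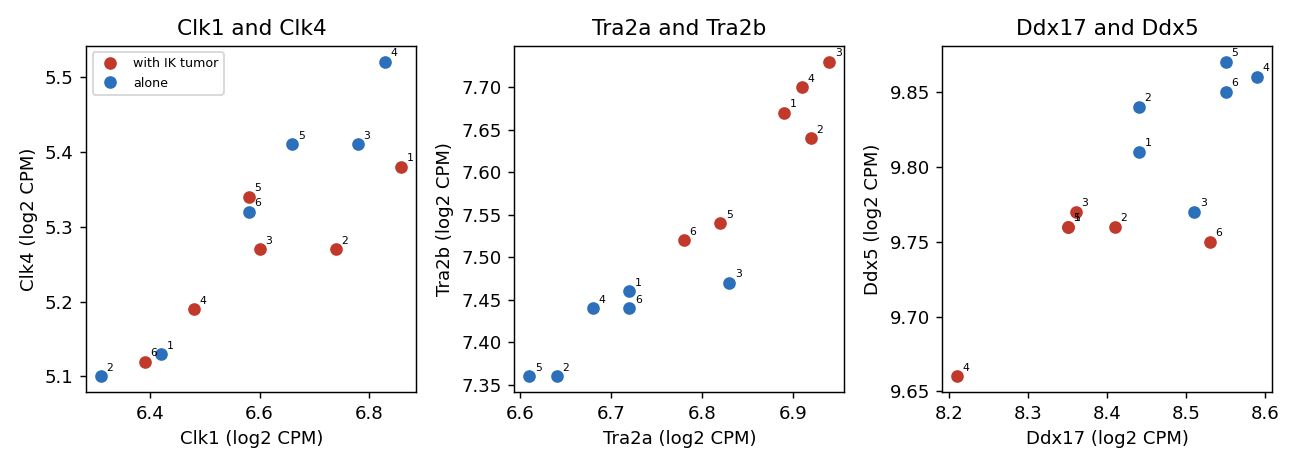
Log2 CPM of Clk1 against Clk4, Tra2a against Tra2b and Ddx17 against Ddx5, 1 point per tumor with its replicate number, red with an IK tumor and blue alone. Clk1 and Clk4 follow each other in both groups with no gap between them, whereas Tra2a and Tra2b place the red points up and to the right.

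Both helicases had lower means with an IK tumor. Ddx5 (p68), the most highly expressed of the 42 genes, was at 9.66, 9.76 and 9.77 with an IK tumor and at 9.77, 9.85 and 9.87 alone. The groups did not overlap, but only 0.0024 separated IK3 from SC3, and IK4 stood apart from the other 5 of its group. The gap rests on the scaling, which used 1.009 times the reads for IK3 and 0.992 times for SC3. The difference was -0.09 (SE 0.0309, 95% interval -0.16 to -0.023), or a change of -6.03% (limma adjusted p = 0.432), and -0.07 without IK4. Ddx17 (p72) shares exon sequence with Kdelr3 on the opposite strand. Ddx17 was at 8.21, 8.35 and 8.53 with an IK tumor and at 8.44, 8.53 and 8.59 alone. IK6 lay inside the other group's range, and the other 5 below it. Its difference was -0.15 (SE 0.0484, 95% interval -0.25 to -0.043), or a change of -9.77% (limma adjusted p = 0.432), and -0.12 without IK4. Ddx5 and Ddx17 had r = 0.80 (permutation p = 0.0033, adjusted 0.0033) and rho = 0.72 (permutation p = 0.011, adjusted 0.011) over 12 tumors, but r = 0.57 without the 2 farthest tumors. Within the groups r was positive but did not pass, with r = 0.68 with an IK tumor (exact permutation p = 0.31, n = 6) and r = 0.44 alone (exact permutation p = 0.38, n = 6).

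All 3 speckle proteins had lower means with an IK tumor. Srrm2, a large serine- and arginine-rich scaffold of the speckle core, was at 9.12, 9.23 and 9.33 with an IK tumor and at 9.25, 9.34 and 9.42 alone. The difference was -0.11 (95% interval -0.21 to -0.019, limma adjusted p = 0.432), and 2 tumors of the IK group, IK1 and IK6, lay inside the range of the tumors alone. Son, the other core scaffold, differed by -0.06 (-0.13 to 0.019), and Srrm1, a coactivator that bridges SR proteins and the spliceosome, by -0.05 (-0.14 to 0.044), with overlapping groups (limma, adjusted p = 0.498 and 0.626). Srrm2 shares exon sequence with Elob and Son with Donson, on the opposite strand in both cases.

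Of the 23 hnRNP genes 14 had higher and 9 lower means. Higher means were seen for 53.3% of all genes and 63.6% of those at 6 to 10 log2 CPM. The median hnRNP difference was 0.02, and the extremes were -0.12 and 0.08. With p under 0.05 in limma before adjustment were 3 of the 23, against 11.5% of all genes: Hnrnpf (0.07), Hnrnph1 (-0.09) and Hnrnpdl (-0.09). Hnrnpf and Hnrnph1 are paralogs that bind G-rich elements, and they lay on opposite sides. Hnrnpf was at 8.22, 8.27 and 8.31 with an IK tumor and at 8.11, 8.21 and 8.24 alone (95% interval 0.0060 to 0.14, limma adjusted p = 0.432). Hnrnph1 was at 8.38, 8.42 and 8.52 with an IK tumor and at 8.44, 8.55 and 8.56 alone (95% interval -0.16 to -0.020, limma adjusted p = 0.432). The groups overlapped for both. The Hnrnpf difference was 0.03 with the T cell mean and 0.02 with the proliferation mean in the fit. Hnrnph2, another paralog, had the narrowest spread of all 42 genes, at a pooled SD of 0.033, and differed by 0.02 (-0.035 to 0.076).

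Hnrnpa2b1, Hnrnpk and Hnrnpu, the most abundant hnRNPs by mean log2 CPM, differed little. Hnrnpa2b1, a nuclear RNA-binding protein that also reads methylated adenosine, was at 9.29, 9.37 and 9.44 with an IK tumor and at 9.34, 9.39 and 9.46 alone, a difference of -0.02 (95% interval -0.093 to 0.052). Hnrnpk, which binds C-rich RNA, differed by 0.02 (-0.042 to 0.087), and Hnrnpu, the nuclear scaffold attachment factor, by -0.01 (-0.093 to 0.077). Hnrnpc, which binds uridine tracts, differed by 0.02 (-0.055 to 0.086). Hnrnpl, which binds CA repeats, differed by 0.04 (-0.026 to 0.11), and Ptbp1, the polypyrimidine tract-binding repressor, by 0.05 (-0.030 to 0.13). Hnrnpll, a lymphocyte splicing regulator known for the Cd45 exons, was at 6.15, 6.24 and 6.34 with an IK tumor and at 6.08, 6.12 and 6.27 alone, a difference of 0.08 (-0.012 to 0.18). That difference was 0.01 with the T cell mean and also with the proliferation mean in the fit. Limma's adjusted p for these 7 genes ran from 0.461 to 0.938.

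Values of Hnrnpa1 need care. Its mean was 4.88 with an IK tumor and 4.91 alone, far below its paralog Hnrnpa2b1, and it differed by -0.03 (95% interval -0.13 to 0.065). The mouse genome holds processed copies of Hnrnpa1, and how reads that match several copies were counted was not given in the sources used here. Among its rows the table also held Hnrnpa1l2-ps2, at means of 3.05 and 3.0, and Hnrnpa1l2-ps, at -0.02 and 0.09 with 48 to 77 reads per tumor. Hnrnpa1l2-ps gave the lowest hnRNP difference, -0.12, with a 95% interval of -0.38 to 0.15. Hnrnph3 was also low, with 212 to 310 reads per tumor, and differed by -0.07 (-0.26 to 0.12). It shares exon sequence with Rufy2 on the opposite strand, and how reads of the shared stretch were counted is not known. Hnrnpa1l2-ps and Hnrnph3 were, after Clk1, the genes of widest spread, and counting error weighs more on them than on the other members.

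**Figure D4:**
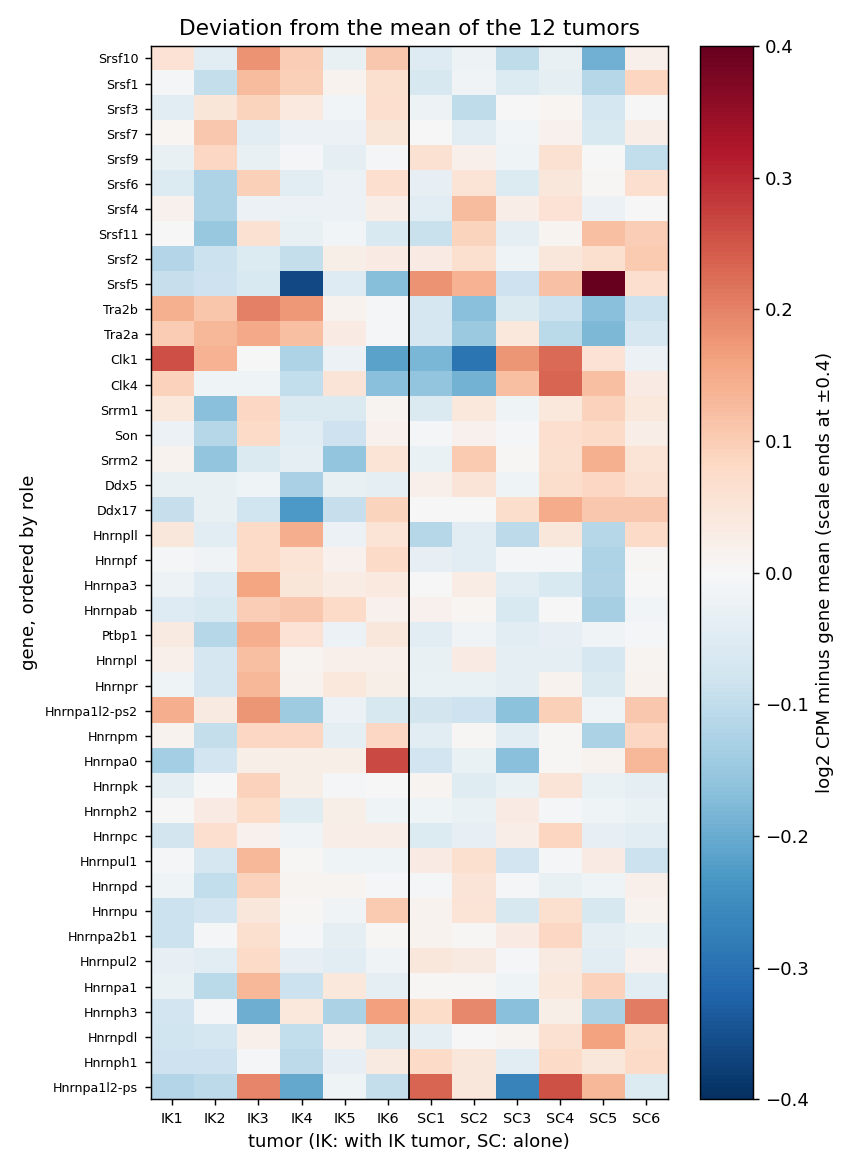
Deviation of each of the 42 genes (rows, ordered by role) in each of the 12 tumors (columns) from the gene's mean over all tumors, in log2 CPM. The Tra2 rows are mostly red on the left and mostly blue on the right of the black line, and Srsf5 and the helicases mostly the reverse. Among the exceptions, Tra2a in SC3 and Ddx17 in IK6 are red, and Srsf5 and Ddx5 in SC3 are blue. Clk1 and Clk4 are mixed, and IK3 is red over most hnRNP rows.

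IK3 was the highest of the 12 tumors for 19 of the 42 genes and for 13 of the 23 hnRNPs, and it was the highest for 15.9% of all genes tested. IK2 was the lowest for 11 of the 42, against 11.7% of all genes. SC5 was the lowest for 9 of the 42 and the highest for 7, near its shares of all genes (22.9% and 18.1%). IK3 also had the highest summed level of the proliferation genes, 11.67 log2 CPM, and SC5 the lowest, 11.24. The part of proliferation in these counts was not tested.

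The splicing genes varied less between tumors than other genes. The median pooled SD within groups was 0.064 log2 units over the 42 genes and 0.114 over all genes tested. Among genes with a mean of 6 to 10 log2 CPM the median SD was 0.0634 for the 35 splicing genes in that range and 0.0838 for all 3786 genes. Above the 0.114 of all genes were Clk1 (0.187), Hnrnpa1l2-ps (0.17), Hnrnph3 (0.142), Srsf5 (0.139), Clk4 (0.137), Hnrnpa0 (0.119), an hnRNP of the A/B family, and Hnrnpa1l2-ps2 (0.116).

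**Figure D5:**
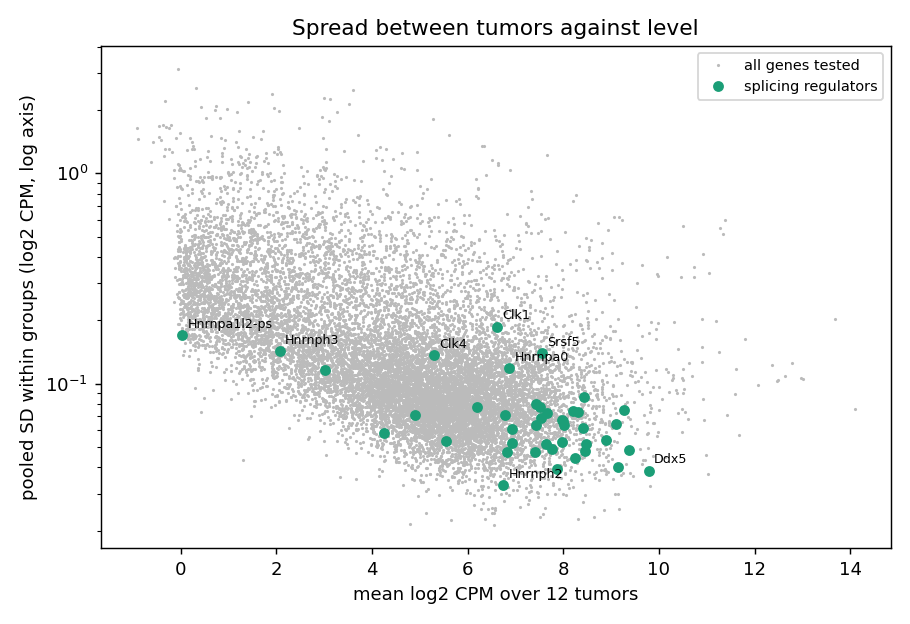
Pooled SD within groups (log2 CPM, log axis) against mean log2 CPM for all 14008 genes tested (grey) and the 42 splicing genes (green). Most green points lie low in the cloud at their level, and Clk1, Clk4, Srsf5 and Hnrnpa0 lie above the other green points of similar level.

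Levels between genes were compared per kilobase of annotated exon sequence (GENCODE M21, which may differ from the annotation used for counting). On this scale, log2 CPM per kilobase, Ddx5 came first at 7.26, followed by Hnrnpa2b1 (6.66), Hnrnpf (6.63), Hnrnpab (6.53), Hnrnpk (6.45) and Srsf2 (6.40). Tra2b (4.32) and Tra2a (3.99) ranked 31 and 32 of the 42. Clk1 (3.58), Hnrnpa1 (3.24) and Clk4 (2.75) were lower still, and Hnrnph3 (0.41) and Hnrnpa1l2-ps (0.09) came last. Exon length counts every annotated isoform, which lowers the value of genes with long alternative exons such as Hnrnpr (22199 bases). In all, 15 of the 42 genes shared exon sequence with a gene on the opposite strand, Ddx17, Hnrnpf, Hnrnpk, Hnrnpu and Ptbp1 among them.

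No gene around the family in the splicing pathway passed after adjustment. For comparison, higher means were seen for 53.3% of all genes and 63.6% of those at 6 to 10 log2 CPM, and 11.5% of all genes had p under 0.05. The 36 core spliceosome genes had 26 higher and 10 lower means at a median difference of 0.03, and 2 had p under 0.05 in limma, both higher. Plrg1, a subunit of the Prp19 complex, had the smallest p of that list at a difference of 0.10 (limma adjusted p = 0.432). Of 35 other splicing regulators 18 were higher and 17 lower, with a median of 0.00 and none at p under 0.05. Tardbp, a repressor of cryptic exons, was at -0.07 (limma adjusted p = 0.472). The largest differences of that list were Mbnl3 at -0.30, with means of 0.99 and 1.29 log2 CPM, and Celf2 at -0.25 (limma adjusted p = 0.504 and 0.493). Of 11 further kinases and phosphatases of SR proteins 2 had p under 0.05, both higher, with the phosphatase subunit Ppp1cb at 0.12 (limma adjusted p = 0.432). Of 15 genes of the exon junction complex and nonsense-mediated decay, 8 were higher and 7 lower at a median of 0.00, and 2 had p under 0.05, 1 in each direction. Rbm8a, a core exon junction protein, was at 0.07 (limma adjusted p = 0.432). Magohb had the largest difference of these genes, -0.21, at means of 1.81 and 2.02 log2 CPM (limma adjusted p = 0.631).

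Of 11 immediate early genes, which respond to handling as well as to signals, 10 had higher means with an IK tumor and 3 had p under 0.05 in limma, none after adjustment, with Ier3 at 0.57 (limma adjusted p = 0.432). Their summed level was 8.86 to 9.30 with an IK tumor and 8.87 to 9.06 alone. It was highest in IK1 (9.30) and IK6 (9.28), which had the highest and the second lowest Clk1 of the 12 tumors (6.86 and 6.39). Of 5 nuclear-retained RNAs only Meg3 and Xist were among the rows, both with lower means and 1 of them with p under 0.05, Meg3 at -0.51 (limma adjusted p = 0.432). The part of tissue handling in the values of the splicing genes was not tested.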

How the data were processed

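The labels' protocols give whole subcutaneous Renca tumors at day 14, RNA from Qiagen RNeasy columns and Illumina TruSeq libraries. Build mm9 and the tools HTSeq, limma, TopHat (1.4.1) and CASAVA (1.8.2) come from the submitters' processing notes; annotation release, strand and multi-copy handling are not given in the sources used here. The authors deposited log2 values for 14496 genes in 12 columns. Raised from the log scale, each value equalled a fixed step per tumor times an integer plus 0.5 (100% of values, within 0.001 of a read), and these integers were taken as reads. Symbols were matched by identifier for 14004 rows.

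Genes of at least 0 log2 CPM in at least 6 of 12 tumors were kept (14008, among them all 42 members). The test was limma (3.58.1, R 4.3.3; empirical Bayes with a trend, two-sided, Benjamini-Hochberg over all genes, threshold 0.05). Named members were those of the 6 largest differences in each direction, the 3 widest and 3 narrowest spreads, a fixed set, and 1 gene of smallest p per pathway list. Any member or list gene named beyond that was picked with its values in view. The members and the 15 lists were chosen with earlier results of these data known. Pairwise relations used Pearson and Spearman with 100000 resamples, exact within groups (scipy 1.17.1). On simulated data of 14008 genes for this comparison, with independent genes at the median spread, the fit recovered 100% of 100 genes changed 1.5-fold, a larger change than that of any splicing gene here, with 16 false calls among 216. No pair of tumors within a group looked like 1 library deposited 2 times (chi-square per degree of freedom 13.2 to 164 over 30 pairs). Alternatives were 2 filters, 3 scalings, 2 variance models, sample weights, a replicate block, voom on recovered reads, each tumor left out, and 2 covariates added after seeing the data.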

Additional observations from a re-analysis of the deposited data

Results flagged for a closer look

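In 7 of the 84 sets of 6 tumors (42 genes in 2 groups), 1 tumor stood apart from its group by a gap above Dixon's 95% limit for 6 values; chance gives about 1 in 20 such sets. In the IK group Ddx5 in IK4 was at 9.66 log2 CPM, below 9.75 to 9.77 in the other 5, and the Ddx5 difference without IK4 is given in the results. Srsf4 in IK2 was at 4.12 (others 4.22 to 4.27), Srsf9 in IK2 at 5.62 (others 5.5 to 5.53) and Hnrnpul2 in IK3 at 7.94 (others 7.82 to 7.85). Among the tumors alone Hnrnpf in SC5 was at 8.11 (others 8.19 to 8.24), Hnrnph1 in SC3 at 8.44 (others 8.53 to 8.56) and Hnrnph2 in SC3 at 6.78 (others 6.72 to 6.74).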

How the results depend on the processing

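Over 24 alternatives, 23 of the 32 named splicing genes kept the sign of their difference in every setting that gave a value, Tra2a, Tra2b, Srsf5, Ddx5 and Ddx17 among them; Hnrnpa1l2-ps did not pass the filter in every setting. The count of all genes past the threshold was 0 except for 1 with no variance trend, 545 with sample weights and 137 without IK2, and ranged from 0 to 137 with single tumors left out; that of splicing genes was 0 except for 3 with sample weights and 1 without IK2 (range 0 to 1). Signs turned for 9 genes whose differences were 0.07 or less in size. With the T cell mean in the fit Srsf1 was at -0.0219, Hnrnpl at -0.0028 and Ptbp1 at -0.0053; with the proliferation mean Hnrnpa3 was at -0.0084, Srsf1 at -0.0287, Hnrnpl at -0.0133, Ptbp1 at -0.0076 and Clk4 at 0.0007. With sample weights Hnrnpc was at -0.0046 and Clk1 at -0.0105. Hnrnpu was at 0.0034 with quantile scaling and 0.0051 with median scaling, and Hnrnph3 at 0.0561 with quantile scaling. With single tumors left out Hnrnpu ranged from -0.0296 to 0.0082 and Clk1 from -0.0464 to 0.0573. The cause of these turns was not tested.

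No clear pairing of the tumors by replicate number was seen. Correlations of same-numbered deviations ran from -0.305 to 0.447, and no number had both its tumors correlate best with each other. A weak pairing could escape this check. A replicate block called 0 genes and 0 splicing genes, with Tra2b at 0.2118 (limma, adjusted p = 0.439).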
